A study of Homo sapiens with 4 samples.

Results

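The SR proteins, hnRNPs and snRNP proteins are the core RNA-binding and structural proteins of pre-mRNA splicing. Their genes were taken by symbol: SRSF followed by a digit, HNRNP, SF3A or SF3B followed by a digit, and SNRP, and each gene was read from a single RefSeq record, that with most counts on average. The expression table listed 54 such genes among 11415 gene symbols, of which 11 were SRSF genes, 22 HNRNP genes, 9 SF3A or SF3B genes and 12 SNRP genes. All 54 were tested, since the filter on low counts removed no gene, and the lowest mean count of a member over the 4 libraries was 1714.

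The RNA came from TK6, a line of human B lymphoblastoid cells that carries 1 functional allele of the thymidine kinase gene. Cells of both conditions were seeded at 200000 cells per ml in High Aspect Ratio Vessels (HARV), the culture chambers of a rotating bioreactor, and kept for 48 hours. In simulated microgravity (SM) the vessels rotated at 12 rpm, and in the static control (SC) they stood still, with 2 libraries per condition. The sources used here do not say whether the 2 libraries of a condition came from separate vessels, and p-values then measure only the spread between these libraries.

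The spliceosome removes introns from pre-mRNA. Its snRNPs are particles of a small nuclear RNA and proteins, built on a ring of Sm proteins; the U1 snRNP binds the 5′ splice site and the U2 snRNP the branch point. SR proteins (SRSF) bind exons through RNA recognition motifs and recruit the splicing machinery through a domain rich in arginine and serine, while hnRNPs coat the nascent transcript and often act against SR proteins in the choice of exons. Many of these genes hold ultraconserved poison exons, alternative exons with an in-frame stop codon whose inclusion sends the mRNA to nonsense-mediated decay, and several SR proteins and hnRNPs limit their own level in this way.

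The poison exons of SRSF3 and SRSF6 are shown, from the 6 genes listed with a coding and a noncoding record. Only in these genes was an exon found with a stop codon that could be read in frame. Exons of transcripts annotated in the same way were also found in SRSF2 and SRSF10. These overlapped no annotated coding sequence of their transcript, so no frame was read in them and a stop codon was not looked for. The sequences run from the first base of the exon through the first in-frame stop codon, which is in capitals, and were read from GRCh37 (hg19), plus strand, at the exons of GENCODE transcripts annotated as targets of nonsense-mediated decay. The SRSF3 stretch lies at chr6:36567598-36567631, the first 34 bases of an exon of 456 bases, and the SRSF6 stretch at chr20:42087793-42087944, the first 152 bases of an exon of 268 bases.
SRSF3 poison exon (SRSF3-203): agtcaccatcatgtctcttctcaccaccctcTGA
SRSF6 poison exon (SRSF6-202): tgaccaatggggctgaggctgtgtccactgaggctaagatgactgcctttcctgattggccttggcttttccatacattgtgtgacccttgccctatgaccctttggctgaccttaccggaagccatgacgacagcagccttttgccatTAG
The SRSF3 exon overlapped an exon in 0 of 2 protein-coding GENCODE transcripts of the gene, and the SRSF6 exon in 0 of 4. In both, the stop codon found was the one that GENCODE annotates. GENCODE holds a second such exon of SRSF3 (SRSF3-204), of 98 bases at chr6:36566206-36566303, also with an in-frame stop codon and in 0 of 2 protein-coding transcripts, which is not printed.

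Counts over all records ranged from 112609031 to 126368530 per library, and counts over 1 record per gene from 57481510 to 64497288. Levels are given as CPM, the usual counts scaled to the library total (here over 1 record per gene, after TMM scaling, which adjusts library sizes for composition); CPM is not divided by length, so levels were compared between libraries and not between genes. The biological coefficient of variation was 6.77%. Of 13 B cell markers 10 were listed, CD79A, CD79B, MS4A1 and PAX5 among them, and BLK, HLA-DRA and CR2 were not. The summed level of the 10 was 2997 to 3157 CPM in SM and 2989 to 3062 CPM in SC. The sum joined opposite differences. MS4A1 was at 1240 and 1205 CPM in SM and 1017 and 1051 CPM in SC. The other listed B cell markers were lower on average in SM, among them CD74 at 989 and 927 CPM, against 1099 and 1026 CPM in SC. At an FDR under 0.1 in edgeR's quasi-likelihood test, 0 of the 10 passed. None of 12 T cell markers and none of 9 erythroid and megakaryocyte markers was listed. Of 9 myeloid markers 2 were listed, with a summed level of 20.0 to 22.3 CPM over the 4 libraries. Why single genes were not listed was not tested, and a gene that is not listed need not be unexpressed.

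Rotation for 48 hours was accompanied by no detectable change in the mRNA of the splicing factors. With edgeR's quasi-likelihood test at an FDR under 0.1, 0 of 54 genes passed, where 1.1% of all genes did (27 rose and 99 fell). At an unadjusted p under 0.05 the count was also 0, where 8.08% of all genes fell under it, and DESeq2 and limma-voom gave 0 and 0 as well. The log2 fold changes of SM over SC ran from -0.16 (HNRNPU-AS1) to 0.12 (SF3B14), with a median of -0.02 beside 0.00 over all genes. Of the members 38 were negative and 16 positive, where 5683 of all genes were negative and 5732 positive. The 38 include HNRNPA1P10 and HNRNPUL2-BSCL2, which were not measured separately from HNRNPA1 and HNRNPUL2. The median size of the log2 fold change was 0.039 for the splicing factors and 0.066 for all genes.

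The precision of these values bounds what could have been missed. The median standard error of a log2 fold change was 0.081, and the 95% interval lay inside a 1.5-fold difference in either direction for 54 of 54 members, as it did for 94.8% of all genes. For 53 of 54 it lay inside 1.25-fold, where 69.7% of all genes did; the exception was HNRNPU-AS1, whose interval reached from -0.36 to 0.04. Differences inside the interval of a gene were not detectable with 2 libraries per condition. In the CPM of the 4 libraries, the conditions did not overlap for 11 members lower in SM (18.1% of all genes) and 4 higher in SM (17.9% of all genes), 27.8% of the members in either direction beside 35.9% of all genes. Among the 11, SRSF1 and HNRNPM were nearly equal in the second SM and the first SC library. HNRNPUL1 was nearly equal in the second SM and the second SC library, at 262.55 and 262.59 CPM.

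**Figure D1:**
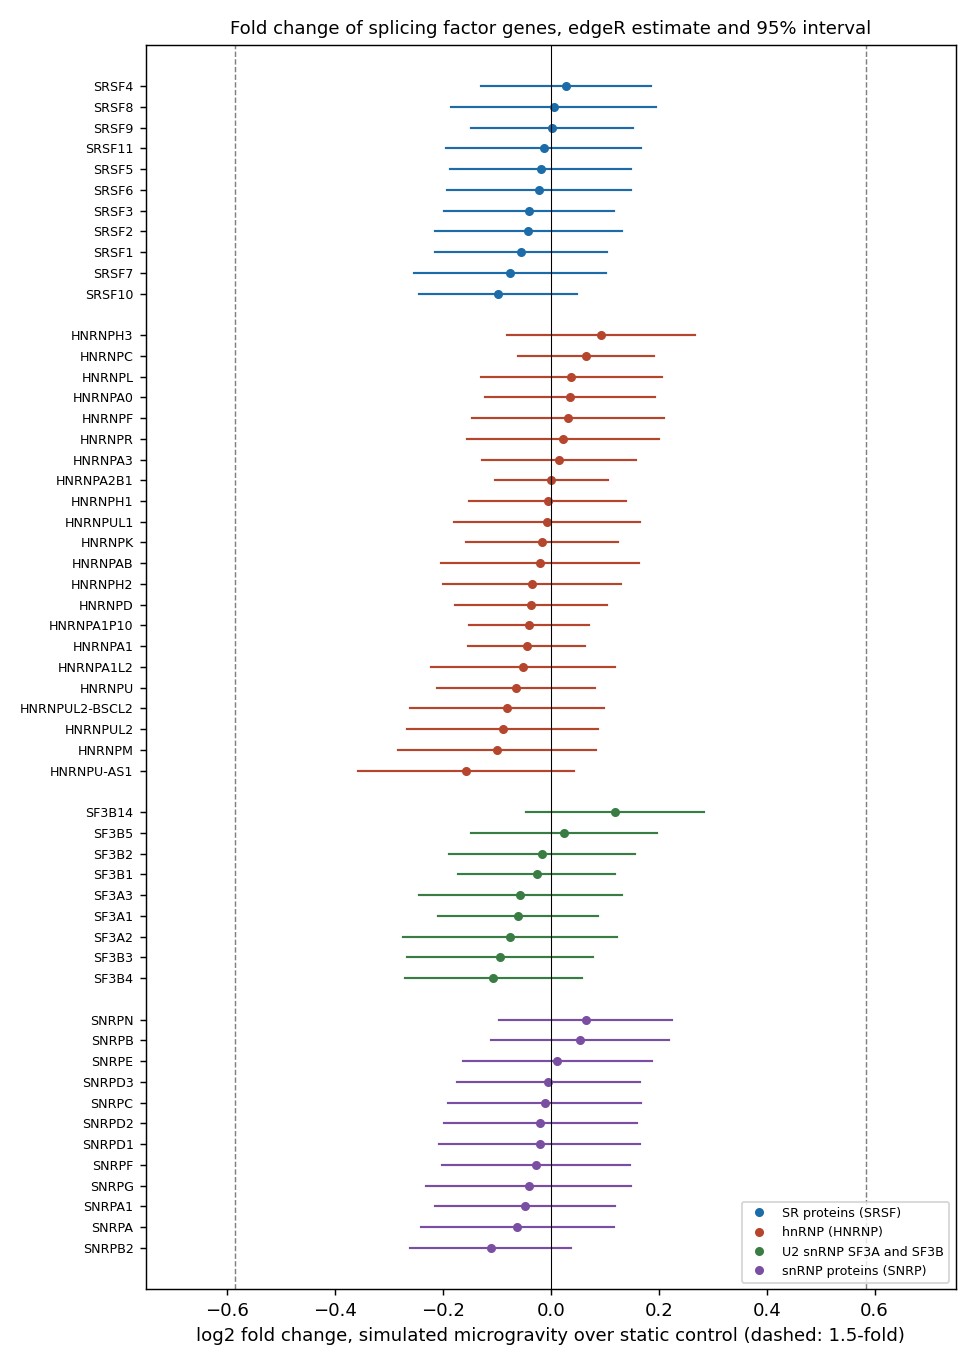
Log2 fold change (x axis) of each of the 54 splicing factor genes (y axis, grouped by family), simulated microgravity over static control. Points are edgeR estimates, bars are 95% intervals from 2 libraries per condition and dashed lines mark a 1.5-fold difference; every interval spans 0 and lies inside the dashed lines.

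Among the SR proteins, SRSF10, which represses splicing when it is dephosphorylated, had the smallest p. Its CPM was 123 and 123 in SM and 131 and 132 in SC, 123 ± 0.573 against 132 ± 0.593 (SD, n = 2). Both SM libraries were below both SC libraries and the 2 libraries of a condition nearly coincided, but the log2 fold change was -0.10 ± 0.070 (SE) with an FDR of 0.853 in edgeR's quasi-likelihood test, since that test takes the spread of a gene partly from all genes. SRSF1, the founding SR protein also called ASF/SF2, was at 553 and 571 CPM in SM and 571 and 597 CPM in SC, a log2 fold change of -0.06. SRSF7, which also serves in mRNA export, was at 289.9 and 311 CPM in SM and at 311 and 323 CPM in SC, and the conditions overlapped. SRSF3, the smallest of the classical SR proteins, was at 587 and 627 CPM in SM and 618 and 631 CPM in SC, with the conditions overlapping as well. The other 7 SRSF genes had log2 fold changes between -0.04 (SRSF2) and 0.03 (SRSF4), and SRSF5 (-0.02) and SRSF6 (-0.02) were among them.

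Together the SRSF genes held 0.324% and 0.318% of the counts in SM and 0.328% and 0.327% in SC. Of the 11, 3 were lower in both SM libraries than in both SC libraries (SRSF10, SRSF1 and SRSF2), where 18.1% of all genes were, and 0 were higher, where 17.9% of all genes were. For SRSF1 the gap was very narrow, 570.66 CPM in the second SM library against 570.78 CPM in the first SC library.

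The hnRNPs held most of the counts of the splicing factors, 1.46% and 1.52% of all counts in SM and 1.48% and 1.50% in SC, so their ranges overlapped. HNRNPA1, which represses exons and competes with SR proteins, was at 2453 and 2575 CPM in SM and 2493 and 2692 CPM in SC, a log2 fold change of -0.04 with a 95% interval from -0.15 to 0.06. HNRNPA2B1, its close relative, was at 2271 and 2375 CPM in SM and 2309 and 2333 CPM in SC, and its log2 fold change was 0.00 with an interval from -0.10 to 0.10. These 2 intervals were the narrowest of the 54, and for both genes the conditions overlapped.

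HNRNPC, which binds runs of uridine in introns, was at 1735 and 1951 CPM in SM and 1774 and 1750.3 CPM in SC. The second SM library stood above the other 3 libraries, which lay close together, and the log2 fold change was 0.07 with an FDR of 0.904 in the quasi-likelihood test. HNRNPM, a splicing regulator bound to GU-rich sites, was at 339.7 and 391 CPM in SM and 391 and 392 CPM in SC. Here the first SM library stood below the other 3, and the log2 fold change of -0.10 (FDR 0.894) rested on it: without that library it was 0.00, and without the second SM library -0.20. HNRNPH3, of the family that binds runs of guanine, was at 325 and 344 CPM in SM and 314 and 313 CPM in SC, higher in both SM libraries, with a log2 fold change of 0.09 (FDR 0.897).

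HNRNPU-AS1 had the smallest p of all members, 0.118 with an FDR of 0.786 in the quasi-likelihood test. Its noncoding record was at 179.9 and 139 CPM in SM and 181 and 174 CPM in SC, 160 ± 28.8 against 178 ± 5.03 (SD, n = 2). The first SM library lay within the range of the SC libraries and the second below it, so the conditions overlapped. Despite its name, the record was listed on the minus strand of hg19 at chr1:245003940-245010243, the strand of HNRNPU, whose record lay at chr1:245013602-245027827; the RefSeq gene table gives HNRNPU-AS1 as a synonym of HNRNPU. HNRNPU itself, a nuclear matrix protein also called SAF-A, was at 857 and 936 CPM in SM and 922 and 954 CPM in SC, with the first SM library lowest and the second inside the range of the control.

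Without the first SM library, HNRNPU-AS1 had a log2 fold change of -0.35 with an FDR of 0.00109 and HNRNPC one of 0.15 with an FDR of 0.0193, and these were the 2 members of 54 past the FDR in edgeR's quasi-likelihood test. In that fit 7.68% of all genes passed, 877 in number, with a single SM library whose spread was taken from the SC libraries. Without the second SM library 0 members passed, HNRNPU-AS1 was at 0.02 and HNRNPC at -0.02, and 7 members had an unadjusted p under 0.05, where 9.43% of all genes did.

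Some HNRNP entries were not separate measurements. HNRNPA1P10, named as a pseudogene of HNRNPA1, was listed at chr12:54674533-54678663, inside the span of HNRNPA1 at chr12:54674488-54679030, and its counts were 92.2% to 92.6% of those of HNRNPA1; the RefSeq gene table places this pseudogene on chromosome 19. HNRNPUL2-BSCL2, a readthrough record, held 98.5% to 99.9% of the counts of HNRNPUL2. HNRNPA1L2, a retrocopy, shares 98.4% of 960 aligned coding bases with HNRNPA1, and reads that matched both had been removed, so its 47.3 and 51.4 CPM in SM and 49.8 and 52.5 CPM in SC are uncertain. The 2 records inside HNRNPA1 and over HNRNPUL2 were left out of the shares of counts given here.

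The SF3A and SF3B proteins make up the part of the U2 snRNP that holds the branch point. SF3B1, its largest subunit, was at 827 and 795 CPM in SM and 809 and 844 CPM in SC, a log2 fold change of -0.03 with the conditions overlapping. SF3B14, the subunit p14 at the branch point adenosine (now SF3B6), was at 197 and 213 CPM in SM and 191 and 186 CPM in SC. Both SM libraries were above both SC libraries, 205 ± 11.3 against 189 ± 3.35 (SD, n = 2), and the log2 fold change of 0.12 ± 0.078 (SE), the highest of the 54, had an FDR of 0.818 in the quasi-likelihood test. SF3B4, at 54.5 and 55.1 CPM in SM and 61.1 and 56.9 CPM in SC, was lower in both SM libraries, with a log2 fold change of -0.11 (FDR 0.854). SF3B3, another subunit of the SF3B core, was at 320.1 and 314 CPM in SM and 340.3 and 336 CPM in SC, also lower in both (log2 fold change -0.09, FDR 0.894). SF3B2 was at -0.02. The 9 genes together held 0.225% and 0.224% of the counts in SM and 0.227% and 0.227% in SC.

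The SNRP genes encode the Sm ring and proteins particular to the U1 and U2 snRNPs. SNRPB2, the U2-B″ protein, was at 139.5 and 147 CPM in SM and 152 and 158 CPM in SC, lower in both SM libraries, with a log2 fold change of -0.11 ± 0.071 (SE) and an FDR of 0.801 in the quasi-likelihood test. SNRPA, the U1 A protein and a paralog of SNRPB2, was at 97.8 and 102 CPM in SM and 114 and 94.3 CPM in SC; its 2 control libraries enclosed both SM libraries. SNRPD2, an Sm protein with the highest count of the SNRP genes, was at 274 and 294 CPM in SM and 284 and 292 CPM in SC. Of the Sm proteins, SNRPB was at 201 and 214 CPM in SM and 201 and 199 CPM in SC, and SNRPN at 113 and 127 CPM in SM and 117 and 113 CPM in SC. SNRPN, an imprinted gene expressed from the paternal allele, encodes SmN, which can take the place of SmB from SNRPB; the 2 coding sequences are 82.0% identical with no shared run over 32 bases. Their log2 fold changes were 0.06 (SNRPN) and 0.05 (SNRPB), and neither passed the test.

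The 2 SM libraries differed from each other in most members. CPM was higher in the second SM library than in the first for 43 of 54 members, with a median log2 ratio of 0.08, while over all genes it was higher for 5515 of 11415, with a median of -0.01. In SC, 27 of 54 were higher in the second library, with a median of 0.00. The log2 ratio of the 2 SM libraries was larger in size than the log2 fold change between conditions for 40 of 54 members, as it was for 7210 of all 11415 genes. The ratio compares single libraries and the fold change conditions of 2 libraries each, so the ratio is the noisier measure.

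This was most uniform among the SNRP genes, of which 12 of 12 were higher in the second SM library, by a median log2 ratio of 0.18. SNRPG was at 209.7 and 249.9 CPM in SM and at 233 and 239.8 CPM in SC, and SNRPD1 at 184 and 221 CPM in SM and 202 and 209 CPM in SC: in both, the SC libraries lay between the SM libraries. Without the first SM library their log2 fold changes were 0.08 and 0.10, and without the second -0.17 and -0.16. The SNRP genes together held 0.201% and 0.222% of the counts in SM and 0.212% and 0.213% in SC. Among the SRSF genes 7 of 11 were higher in the second SM library, with a median log2 ratio of 0.01. Depth also differed, since the second SM library was the deepest of the 4 and the first the shallowest; its part in the result was not tested.

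**Figure D2:**
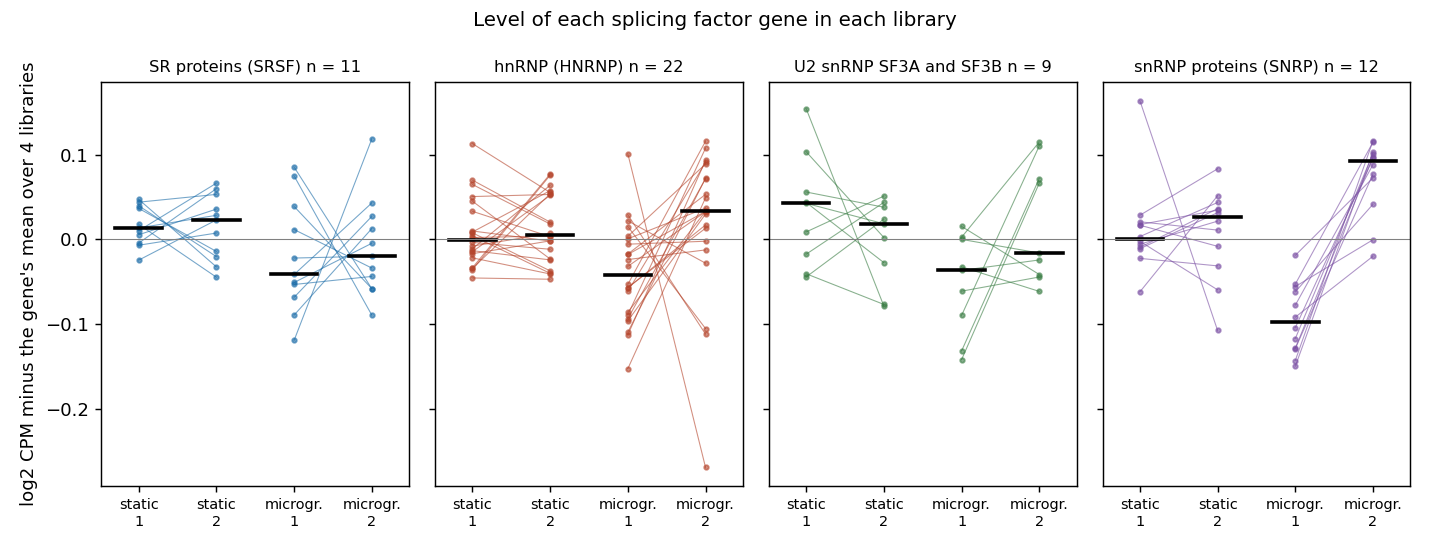
Level of each gene in each of the 4 libraries (x axis), as log2 CPM minus the mean of that gene over the libraries (y axis), by family. Points are genes, thin lines join the 2 libraries of a condition and black bars are medians, which for the SNRP genes were -0.10 in the first and 0.09 in the second simulated microgravity library.

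**Figure D3:**
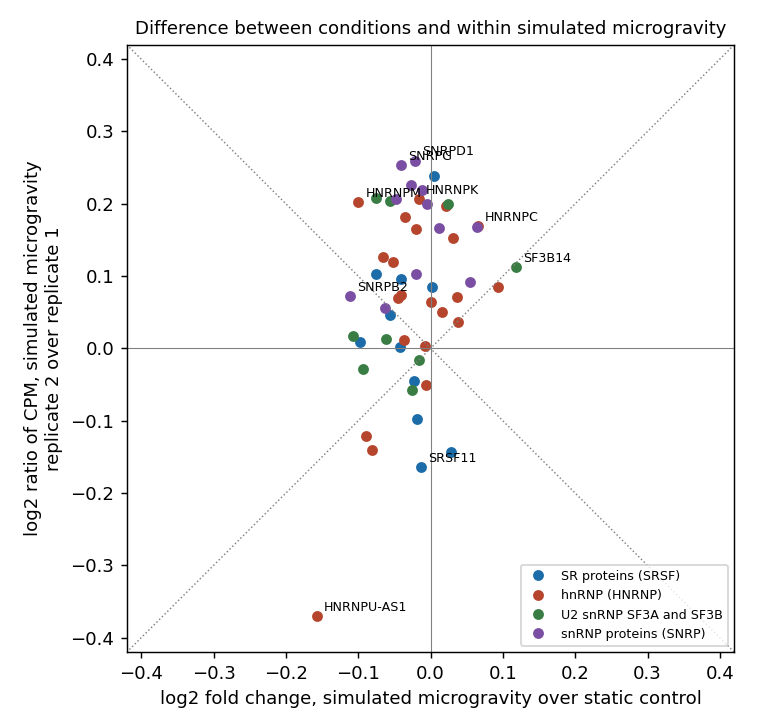
Log2 ratio of CPM between the 2 simulated microgravity libraries (y axis) against the log2 fold change between conditions (x axis) for the 54 genes. Along the dotted diagonals the 2 are equal in size, though the y axis compares single libraries and the x axis conditions of 2 libraries each. In the upper or lower sector lie 40 of 54 genes (7210 of 11415 over all genes), and HNRNPU-AS1 lies lowest.

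The 54 genes were listed with 106 RefSeq records, 31 of them with more than 1 and SRSF10 with 7, the most of any member. Records of a gene share reads and are not independent. When all 22375 records were tested in the same way, 0 of the 106 passed the FDR, where 1.32% of all records did, and 0 had an unadjusted p under 0.05, where 8.4% of all records did; the smallest p was 0.092 (FDR 0.715), again for HNRNPU-AS1. The records of a gene gave nearly the same fold change: the range was largest for SF3B1, 0.07 on the log2 scale, followed by SRSF10 at 0.05. For SF3B1 the record of the full coding mRNA had a log2 fold change of -0.03 and a second coding record with far fewer counts one of -0.10.

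Of the 106 records 9 were noncoding (NR accessions). For 6 genes, SRSF1, SRSF2, SRSF3, SRSF6, SRSF10 and SNRPC, a noncoding record stood beside coding ones, and 3 symbols had a noncoding record alone (HNRNPA1P10, HNRNPU-AS1 and HNRNPUL2-BSCL2). For SRSF2, SRSF3 and SRSF6 the noncoding record had the highest count and is the one used for the gene. The table does not hold the exons of a record, so the difference between 2 records of a gene is the net of the reads that only one of them covers. Intervals on these shares are 95% Wilson intervals, which treat the net difference as a simple count. They can be too narrow, since a net difference hides reads that each record holds alone, and they leave out the spread between libraries.

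The noncoding record of SRSF3 had 34137 and 40195 counts in SM and 37583 and 39128 in SC, and exceeded the coding record by 1673 and 1932 counts in SM and by 1791 and 1834 in SC. As a share of the noncoding record, this excess was 4.90% (interval 4.68 to 5.13) and 4.81% (4.60 to 5.02) in SM and 4.77% (4.55 to 4.99) and 4.69% (4.48 to 4.90) in SC. Both SM libraries were above both SC libraries by less than the width of an interval, and with 2 libraries against 2 an exact permutation test cannot give a two-sided p below 0.333. For SRSF6, the excess of the noncoding record was 929 and 948 counts in SM and 975 and 913 counts in SC, or 6.60% and 6.31% in SM and 6.51% and 6.20% in SC. The conditions overlapped for SRSF6. An excess of the noncoding record was also seen in SRSF2, and in SRSF10 against some of its coding records, and no poison exon is printed for these genes. Whether the excess reads of SRSF3 and SRSF6 lay in the printed poison exons was not tested.

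In SRSF2, the noncoding record exceeded the main coding record by 32 and 579 counts in SM and by 146 and 91 counts in SC. The second SM library stood apart, at 3.41% (interval 3.15 to 3.70) of the noncoding record, where the other 3 libraries were between 0.208% and 0.886%. Against the other coding record of SRSF2 the excess was even, 11.9% and 11.5% in SM and 11.7% and 11.4% in SC.

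In SRSF1 and SNRPC every coding record listed was larger than the noncoding one. The noncoding record of SRSF1 held 76.4% and 74.5% of the count of its main coding record in SM and 76.5% and 75.8% in SC, with the second SM library lowest. That of SNRPC, the U1 C protein that helps U1 hold the 5′ splice site, held 78.0% and 77.5% in SM and 77.2% and 77.4% in SC. For SNRPC both SM libraries were above both SC libraries, at the least p of 0.333 that an exact permutation test of 4 libraries allows. For SRSF10 the values were 92.9% and 93.3% in SM and 92.1% and 90.3% in SC against the coding record with the most counts. Against another of its 6 coding records (NM_006625) they were 113.9% and 112.9% in SM and 115.0% and 114.2% in SC, so that the order of the conditions turned with the coding record chosen. In the test over records, the noncoding records of HNRNPU-AS1, HNRNPUL2-BSCL2 and SRSF10 had the smallest p of the noncoding records, with log2 fold changes of -0.16, -0.08 and -0.07 and FDRs of 0.715, 0.914 and 0.925.

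**Figure D4:**
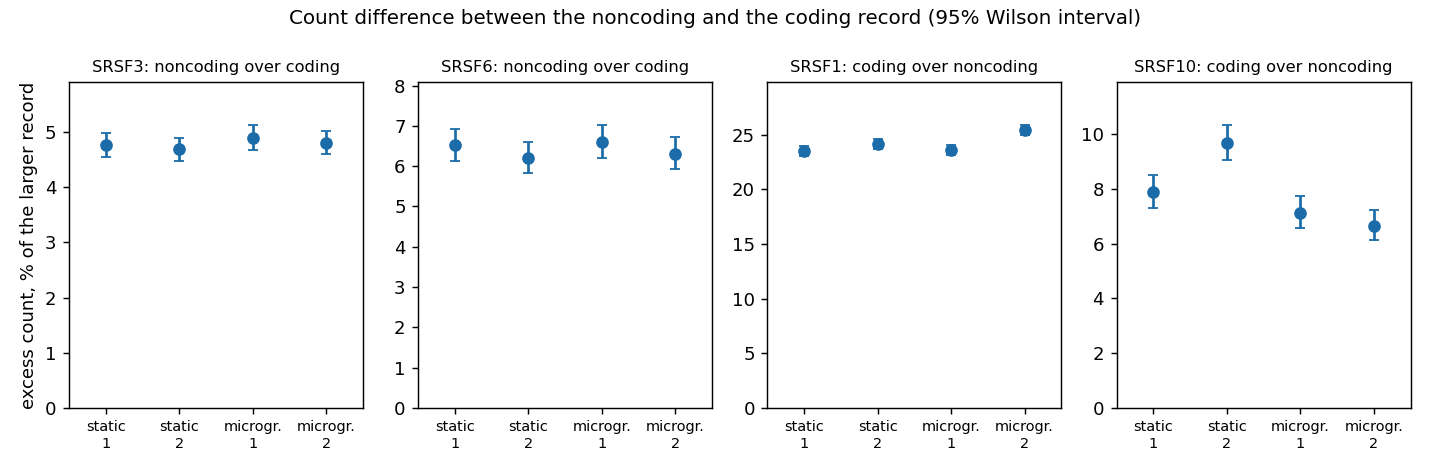
Count difference between the noncoding and the coding record of 4 SRSF genes in each library (x axis), as a percentage of the larger record (y axis, from 0, with its own scale in each panel). Points are libraries and bars are 95% Wilson intervals, which treat the net difference as a simple count and can be too narrow. For SRSF3 the 4 libraries lie between 4.69% and 4.90%.

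Splicing genes outside the 4 symbol families were read beside them. Of 115 such gene symbols in 9 lists, 110 were measured (SMN1 and SMN2 with identical counts). At an FDR under 0.1 in the quasi-likelihood test 0 rose and 0 fell, where 1.1% of all genes passed. An unadjusted p under 0.05 was reached by 4 of the 110 (8.08% of all genes), and their median log2 fold change was -0.02. These 4 were SMG6, the endonuclease of nonsense-mediated decay (log2 fold change -0.26, FDR 0.283), PCBP4, a poly(C)-binding protein (0.31, FDR 0.350), CLK3, a kinase of SR proteins (-0.23, FDR 0.391), and MAGOHB, of the exon junction complex (-0.22, FDR 0.536). CLK3 was at 118 and 96.1 CPM in SM and 129 and 122 CPM in SC, and SMG6 at 32.5 and 28.7 CPM in SM and 37.4 and 35.9 CPM in SC, both lower in both SM libraries. PCBP4 was at 15.6 and 14.4 CPM in SM and 13.4 and 10.8 CPM in SC.

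The size of these values depended on the library left out, and each such fit kept a single library in one condition. Without the first SM library CLK3 was at -0.38 and SMG6 at -0.35, and without the second they were at -0.10 and -0.17. PCBP4 was at 0.36 without the second SM library and at 0.26 without the first, and it ranged from 0.16 without the second SC library to 0.47 without the first.

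In the other lists the gene with the smallest p was PRPF39 of the PRPF spliceosome proteins (-0.15), U2AF1L4 of those that recognise the branch site and the 3′ splice site (-0.21), LUC7L3 of the SR-related proteins (-0.10), SNRNP48 of the minor spliceosome (0.10), LSM3 of the LSM ring (0.11) and GEMIN8 of the SMN complex that loads Sm rings (0.14), with FDRs between 0.712 and 0.885 in the quasi-likelihood test. Of these, PRPF39 was at -0.25 and U2AF1L4 at -0.38 without the first SM library, in a fit with a single SM library. The summed level of the LSM ring proteins was lowest in the first SM library and highest in the second, 499 and 561 CPM in SM and 505 and 519 CPM in SC, while that of the SR-related proteins was lowest in the second, 4829 and 4515 CPM in SM and 4864 and 4778 CPM in SC. The SR protein kinases were likewise lowest in the second SM library, at 998 and 944 CPM in SM and 999 and 996 CPM in SC. The summed level of the exon junction complex and nonsense-mediated decay genes was lower in both SM libraries. It was 1326 and 1307 CPM in SM and 1386 and 1369 CPM in SC. The median log2 fold change of this list, -0.09, was the lowest of the lists. The PRPF spliceosome proteins were also lower in both, at 2277 and 2274 CPM in SM and 2315 and 2283 CPM in SC. No splicing list had a higher sum in both SM libraries than in both SC libraries, and the sums were not tested.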

How the data were processed

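Total RNA of 2 simulated microgravity and 2 static control libraries of TK6 cells was sequenced. The authors aligned reads to hg19 with TopHat (the methods and the processing notes name different versions; the notes give TopHat2 2.0.8), removed reads with multiple mappings and counted the rest with Bamutils; whether strand was used is not given in the sources used here. The deposited counts are raw whole numbers per RefSeq record, and the deposited CPM values are counts scaled to the total of all records the authors counted, with records above 1 CPM in at least 1 library listed. The deposited log2 values (fold change and mean level) and the deposited p-values with FDR are the authors' own comparison and were not used.

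Tests on these counts used edgeR 4.0.16 under R 4.3.3 (TMM, filterByExpr, quasi-likelihood F test, Benjamini-Hochberg FDR under 0.1) over all 11415 genes with 1 record each, and over all 22375 records. Scripts were tested on simulated data. Members and lists were chosen with earlier results of these data known. Genes named were, per family, the 3 with the smallest p and the 3 with the highest count, with HNRNPM, SNRPN and SNRPB, the 3 members with the smallest p of a noncoding record, and 1 gene per list of other splicing genes; further genes were named after their values were seen. Shares of counts exclude the records HNRNPA1P10 and HNRNPUL2-BSCL2. Alternatives were DESeq2 1.42.0, limma-voom (limma 3.58.1), edgeR's likelihood ratio, exact and robust tests, other scaling (DESeq2 size factors, no TMM), an FDR under 0.05, a filter of CPM above 10 in 2 libraries, other choices of record, replicate number as a block and leaving out each library. Start coordinates were made 1-based, and none is given for SRSF10, whose listed end lay before its start.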

Additional observations from a re-analysis of the deposited data

How the results depend on the processing

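The count of members past the FDR was 0 under every alternative run except the one without the first simulated microgravity library, so that leaving out each library gave 0 to 2 genes and 0 to 5 records. The median log2 fold change of the members ranged from -0.08 (without the second simulated microgravity library) to 0.02 (without the first) when a library was left out, and from -0.03 to -0.01 under the other alternatives. Over all genes, the count past the FDR was 126, against 194 with edgeR's likelihood ratio test, 877 without the first and 212 without the second simulated microgravity library, and 70 without the first static control library. With the replicate number as a block, 0 members and 96 genes passed. Whether equal replicate numbers mark paired samples is not given in the sources used here. Across genes, the difference between replicates 2 and 1 correlated at 0.08 between conditions (0.28 over the members). Such a correlation cannot settle whether the samples were paired. Of the fold changes of named genes under the alternatives, 528 stayed within the spread of the libraries on the same side of the threshold, 26 moved further and 6 came to pass it. Of these 560 values 20 had the other sign than the reported one, 18 of them with a library left out, and 0 of the 20 passed the FDR. With 2 libraries per condition, differences in single splicing factors that lie inside the 95% intervals were not detectable, RNA levels say nothing of protein or phosphorylation, and the counts per record do not measure the use of single exons.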
